A study of Homo sapiens with 12 samples.

Results

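Matrix metalloproteinases (MMPs) are zinc endopeptidases that are made as inactive precursors and, once activated, cleave collagens and other proteins of the extracellular matrix. Some are secreted and others are anchored in the cell membrane. The tissue inhibitors of metalloproteinases (TIMPs) bind the active site of MMPs and block it, and TIMP2 also takes part in the activation of MMP2 by MMP14 at the cell surface. In bone, these enzymes are known for the turnover of the collagen matrix that osteoblasts lay down.

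The genes described here were the collagenases MMP1 and MMP13, the gelatinase MMP2, the stromelysin MMP11, the membrane-type enzymes MMP14 and MMP16 and the inhibitors TIMP1, TIMP2, TIMP3 and TIMP4. They were 10 of 19775 genes with a probe set that named them alone on the Affymetrix HG-U133 Plus 2.0 array, and they had 27 probe sets. A gene was represented by its probe set with the highest mean over the 12 arrays. Values are log2 RMA signals, so differences between them are log2 ratios of signal.

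SaOS-2, a human osteosarcoma cell line, was compared with transfectants made from it to carry CD99, a cell surface glycoprotein, and called Sa/CD99. The transfectants were 2 stable clones, wt22 and wt36, selected with neomycin, and each clone gave 1 array on each day. Each of the 6 groups thus held 2 arrays: Sa/CD99 and parental SaOS-2 cells at day 0 and after 7 and 14 days in osteogenic differentiation medium. Day 0 was the basal condition, and the differentiation medium held less serum than the routine medium. Changes from day 0 thus combine time with the change of medium. No label tells if the parental arrays, numbered 1 and 2, were separate cultures, so the p-values measure a spread that may be technical. The RNA came from whole cultures, in which fewer cells of a kind and less RNA per cell cannot be told apart.

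The CD99 probe set 201028_s_at went against the labels. It measured 6.67 to 8.88 in the 6 arrays labelled Sa/CD99, against 11.26 to 11.88 in the 6 labelled SaOS-2, and the differences on days 0, 7 and 14 were -4.60, -4.17 and -3.23 (limma adjusted p = 0.0024, 0.00224 and 0.00843). The other CD99 probe set, 201029_s_at, ranged from 12.32 to 12.74 and from 12.29 to 12.66. Real-time PCR for CD99 on the parental line and both clones is described in the study as a check of its expression, and that measurement was not analysed here. All directions below follow the labels. The medians of the arrays lay between 5.25 and 5.31. The clones of a day differed from each other more than the parental pairs did (r = 0.958 to 0.965 against 0.995 to 0.997 across probe sets, with an SD of the difference of 0.39 to 0.42 against 0.12 to 0.14). Of 8 osteoblast markers measured, RUNX2, SP7, ALPL, COL1A1 and SPARC were above the signal floor on all 12 arrays and IBSP on 10, whereas SPP1 and PHEX were below it on all. EPCAM was above the floor on 12 arrays, and the other 4 epithelial, 4 endothelial and 3 leukocyte markers on none.

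Promoter sequences from RefSeq (build GRCh38.p14) were found for 5 of the 10 genes. The 250 bases before the start of transcription are shown for MMP14, TIMP1 and TIMP3, those of the 5 that could be tested below. They are printed 5′ to 3′ on the strand of the gene, with capitals for every GGGCGG, the core of a GC box, on either strand.
MMP14 (chr14:22836335-22836584, plus strand): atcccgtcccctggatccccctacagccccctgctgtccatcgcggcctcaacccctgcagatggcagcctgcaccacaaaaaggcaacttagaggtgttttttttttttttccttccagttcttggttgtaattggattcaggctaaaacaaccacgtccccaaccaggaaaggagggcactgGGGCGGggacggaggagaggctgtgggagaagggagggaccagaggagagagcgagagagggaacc
TIMP1 (chrX:47582186-47582435, plus strand): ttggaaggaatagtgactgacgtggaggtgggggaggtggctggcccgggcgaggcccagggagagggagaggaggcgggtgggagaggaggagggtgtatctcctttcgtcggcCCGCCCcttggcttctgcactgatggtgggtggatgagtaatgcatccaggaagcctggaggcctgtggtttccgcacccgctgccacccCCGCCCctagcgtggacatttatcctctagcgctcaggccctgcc
TIMP3 (chr22:32801455-32801704, plus strand): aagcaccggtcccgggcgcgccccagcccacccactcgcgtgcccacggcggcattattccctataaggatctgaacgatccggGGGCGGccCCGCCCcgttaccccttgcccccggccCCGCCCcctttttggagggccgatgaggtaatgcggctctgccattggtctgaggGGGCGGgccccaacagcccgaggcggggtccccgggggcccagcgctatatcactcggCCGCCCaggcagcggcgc

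The TIMP3 window held GGGCGG at 5 places, that of TIMP1 at 2 and that of MMP14 at 1. Of all 35116 promoters, 42.6% held this motif in the same 250 bases. G and C made up 72.4% of the TIMP3 window, 64.8% of that of TIMP1 and 56.8% of that of MMP14, against a median of 58.0% over all promoters. CpG dinucleotides numbered 26, 12 and 7 in the same order, with a median of 11. The letters of an AP-1 site (TGANTCA) and of a TATA box (TATAAA), searched on both strands, were absent from these windows and from those of MMP11 and TIMP4, and were present in 6.6% and 10.7% of all promoters. The windows of MMP11 and TIMP4, which were not tested, had 73.2% and 62.8% G and C, with 22 and 11 CpG dinucleotides. GGGCGG stood at 3 places in that of MMP11 and at 1 in that of TIMP4. Matches describe the letters and are not evidence of binding.

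In total, 5 of the 10 genes could be tested. The filters kept probe sets with a signal above 100 (6.64 on the log2 scale) in at least 4 arrays and with an interquartile range (IQR) above the median. MMP2, MMP14, TIMP1, TIMP2 and TIMP3 passed, and MMP1, MMP13, MMP11, MMP16 and TIMP4 were below the floor on every array. Calls needed a Benjamini-Hochberg adjusted p of 0.05 or less over 12894 probe sets together with a change of 1.5-fold (0.58 on the log2 scale) or more, and a gene is said to have risen or fallen only if it was called. Because the filter on IQR keeps genes that vary, counts over the 5 genes describe those genes alone.

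The tested genes can be summarised as follows. MMP2 and MMP14 rose over 14 days in both lines, TIMP1 and TIMP2 had positive changes below 1.5-fold, and TIMP3 fell by day 7 in Sa/CD99, and in SaOS-2 by 2 of its 3 tested probe sets. Between the lines, 0 of the 5 genes was called on any day with limma. TIMP3 was the gene whose arrays labelled Sa/CD99 lay above all SaOS-2 arrays on each day, and its differences did not pass the test. The share of all tested genes whose arrays lay apart in this way was not counted. Arrays lying apart, here and below, are therefore descriptions.

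MMP2, the gelatinase that degrades type IV and denatured collagens, had the following values. In Sa/CD99 (clones wt22 and wt36) it measured 11.27 and 11.06 at day 0, 12.15 and 11.86 at day 7, and 12.36 and 11.87 at day 14. In SaOS-2 it measured 11.08 and 11.16 at day 0, 11.84 and 11.95 at day 7, and 12.13 and 12.14 at day 14. The arrays of both later days lay above all day 0 arrays of their own line, and the lines overlapped on each day. In Sa/CD99, MMP2 rose by 0.84 at day 7 (SE 0.17, limma adjusted p = 0.00517) and by 0.95 at day 14 (SE 0.17, adjusted p = 0.00336), which is 1.94-fold. Both calls were lost in Sa/CD99 when only the arrays of the compared groups were fitted (adjusted p = 0.0594 and 0.086). In SaOS-2 it rose by 0.78 at day 7 (adjusted p = 0.00642) and by 1.01 at day 14 (adjusted p = 0.00313), which is 2.02-fold. Between Sa/CD99 and SaOS-2 the difference was 0.04 at day 0 (95% interval -0.33 to 0.41), 0.10 at day 7 (-0.27 to 0.48) and -0.02 at day 14 (-0.39 to 0.36). These intervals lie inside 1.5-fold in either direction, but they use a spread shared by clones and parental arrays. Clone wt22 exceeded wt36 by 0.21, 0.29 and 0.49 on the 3 days, while the parental arrays differed by -0.08, -0.11 and -0.01. With 2 clones the intervals may be too narrow, so a line difference of 1.5-fold is not excluded. The other probe sets of MMP2, 1566678_at and 1566677_at, were below the floor on every array, with highest values of 5.13 and 3.59. When all 3 probe sets were averaged and no filter was used, the MMP2 changes were 0.14 and 0.33 in Sa/CD99 and 0.19 and 0.40 in SaOS-2 at days 7 and 14, and none was called.

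**Figure D1:**
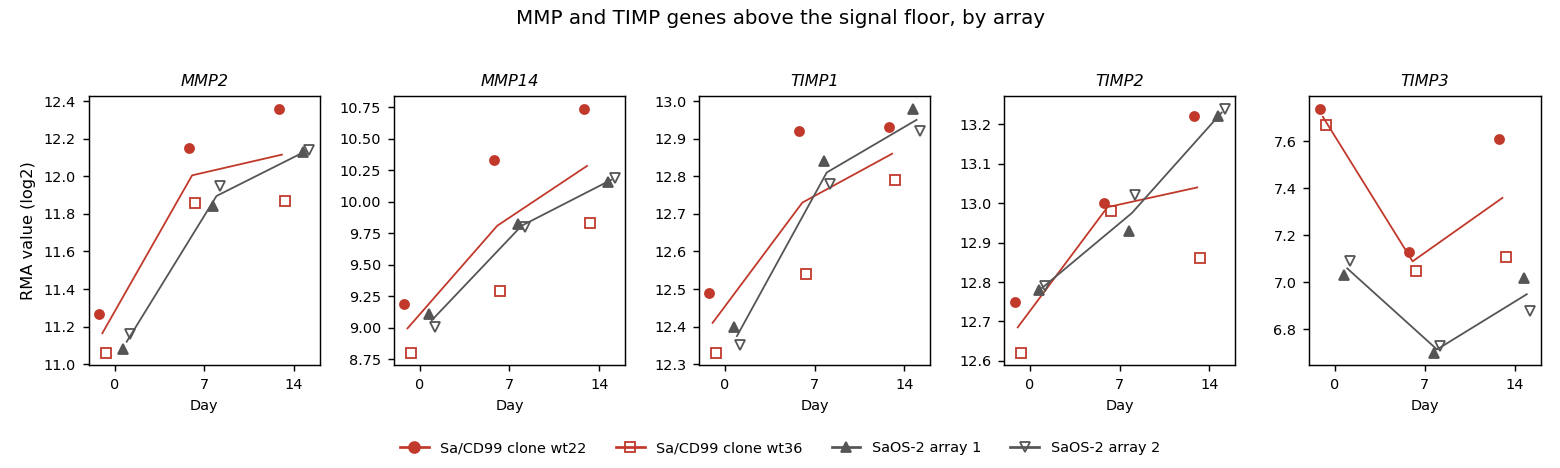
Log2 RMA value of each array (vertical axis, own scale in each panel) by day of differentiation (horizontal axis) for the 5 tested genes, in arrays labelled Sa/CD99 (red, 1 symbol per clone) and SaOS-2 (grey), with lines through the group means. MMP2 and MMP14 rise over the days in both lines, TIMP3 is lowest at day 7, and the MMP14 symbols of the clones lie apart at days 7 and 14.

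MMP14, the membrane-type enzyme that activates the MMP2 precursor, showed the widest spread between clones among the probe sets representing the 5 genes. Other probe sets of TIMP3, given below, spread more at day 14. In Sa/CD99 it measured 9.19 and 8.80 at day 0, 10.33 and 9.29 at day 7, and 10.74 and 9.83 at day 14. In SaOS-2 it measured 9.11 and 9.01 at day 0, 9.82 and 9.80 at day 7, and 10.16 and 10.19 at day 14. Clone wt22 lay above both parental arrays and clone wt36 below both on all 3 days. MMP14 rose by day 14 by 1.29 in Sa/CD99 (SE 0.35, limma adjusted p = 0.0185) and by 1.12 in SaOS-2 (SE 0.35, adjusted p = 0.0357), which is 2.45-fold and 2.17-fold. The day 7 changes were 0.82 in Sa/CD99 (adjusted p = 0.093) and 0.75 in SaOS-2 (adjusted p = 0.107) and were not called. Taking the clone as a block, since the clone number pairs arrays across days, the day 7 change in Sa/CD99 passed (adjusted p = 0.0369 with a random and 0.00392 with a fixed block). The same block gave a call at day 7 in SaOS-2 (adjusted p = 0.0449 and 0.00494), where the array numbers do not pair the arrays.

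Between Sa/CD99 and SaOS-2, MMP14 differed by -0.07 at day 0 (95% interval -0.85 to 0.71), 0.00 at day 7 (-0.78 to 0.78) and 0.11 at day 14 (-0.67 to 0.89). These intervals include 1.5-fold in both directions, so a difference of that size was not detectable with 2 clones. The clones set the sign: without wt36 the day 7 difference was 0.52, and without wt22 the day 14 difference was -0.35. Clone wt22 exceeded wt36 by 0.39, 1.04 and 0.91 on the 3 days. The day 14 calls depended on single arrays. Without the Sa/CD99 wt36 array of day 0 the Sa/CD99 change was 1.10, and without the wt22 array of day 14 it was 0.84. Neither was called. In SaOS-2 leaving out any parental array also removed the call, but with 1 array left out the change stayed between 1.07 and 1.17. Its SE of 0.35 comes from a spread shared by all 6 groups. The parental arrays differed by 0.10 at day 0 and -0.03 at day 14, less than the clones. All 4 probe sets of MMP14 passed the filters. In Sa/CD99 their day 14 changes were at least 1.10 and all were called, and in SaOS-2 they were between 0.88 and 1.25 with 2 of 4 called.

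TIMP1, a secreted inhibitor of most MMPs, differed little between lines. In Sa/CD99 it measured 12.49 and 12.33 at day 0, 12.92 and 12.54 at day 7, and 12.93 and 12.79 at day 14. In SaOS-2 it measured 12.40 and 12.35 at day 0, 12.84 and 12.78 at day 7, and 12.98 and 12.92 at day 14. The later arrays lay above the day 0 arrays in each line. The day 14 change was 0.45 in Sa/CD99 (limma adjusted p = 0.0263) and 0.57 in SaOS-2 (adjusted p = 0.012), and the day 7 change was 0.32 (adjusted p = 0.084) and 0.43 (adjusted p = 0.0268). Each was below 1.5-fold and TIMP1 was not called. The SaOS-2 change at day 14 was 1.49-fold, and it passed when arrays were centred on their median (0.65, adjusted p = 0.00638). The difference between Sa/CD99 and SaOS-2 was 0.04, -0.08 and -0.09 on days 0, 7 and 14, with 95% intervals inside 1.5-fold. As for MMP2, these intervals use the shared spread and may be too narrow with 2 clones.

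TIMP2, the inhibitor that links MMP14 to the MMP2 precursor, also had its highest means at day 14. In Sa/CD99 it measured 12.75 and 12.62 at day 0, 13.00 and 12.98 at day 7, and 13.22 and 12.86 at day 14. In SaOS-2 it measured 12.78 and 12.79 at day 0, 12.93 and 13.02 at day 7, and 13.22 and 13.24 at day 14. At day 0 the arrays labelled Sa/CD99 lay below the SaOS-2 arrays, and on the later days the lines overlapped. The day 14 change was 0.36 in Sa/CD99 (limma adjusted p = 0.0424) and 0.44 in SaOS-2 (adjusted p = 0.0238), each below 1.5-fold. The difference between lines was -0.11 at day 0 (95% interval -0.38 to 0.17), 0.01 at day 7 (-0.26 to 0.28) and -0.19 at day 14 (-0.46 to 0.09). The 3 probe sets of TIMP2 were all tested and 0 was called in any comparison.

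TIMP3, the inhibitor that stays bound to the extracellular matrix, had negative changes over the days. In Sa/CD99 it measured 7.74 and 7.67 at day 0, 7.13 and 7.05 at day 7, and 7.61 and 7.11 at day 14. In SaOS-2 it measured 7.03 and 7.09 at day 0, 6.70 and 6.73 at day 7, and 7.02 and 6.88 at day 14. Both lines were lowest at day 7, and at day 14 clone wt22 was back near its day 0 value while wt36 was not. Sa/CD99 exceeded SaOS-2 by 0.64 at day 0 (SE 0.15, limma adjusted p = 0.0735), by 0.38 at day 7 (adjusted p = 0.186) and by 0.41 at day 14 (adjusted p = 0.201). None was called. Arrays that belong to neither group decided the day 0 call: without the day 14 array of either clone the same difference of 0.64 had an adjusted p of 0.0133. Without the day 14 array of wt36 the day 14 difference was 0.66 (adjusted p = 0.0287), and without that of wt22 it was 0.16.

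Over the days, TIMP3 fell by 0.61 in Sa/CD99 at day 7 (SE 0.15, limma adjusted p = 0.0123), which is 1.53-fold. The change lay close to the fold threshold, and it was -0.57 without the wt22 array of day 0 or without the wt36 array of day 7. It also lost its call when the lines were weighted by their spread (-0.61, adjusted p = 0.0582). The change at day 14 was -0.34 in Sa/CD99 (adjusted p = 0.0907), and in SaOS-2 the changes were -0.34 at day 7 (adjusted p = 0.0883) and -0.11 at day 14 (adjusted p = 0.565). The other probe sets of TIMP3 had lower means over the 12 arrays and larger differences. At day 0 in Sa/CD99, 201149_s_at (8.02 and 8.12) and 201147_s_at (8.23 and 8.20) were higher than the probe set used above (7.74 and 7.67). 201149_s_at and 201147_s_at fell at day 7 by 1.35 and 1.57 in Sa/CD99 (adjusted p = 0.00634 and 0.0145) and by 1.23 and 1.30 in SaOS-2 (adjusted p = 0.00839 and 0.0264). At day 14 they were also called in Sa/CD99, with changes of -0.91 and -1.22 (adjusted p = 0.0304 and 0.0368), and not in SaOS-2, with changes of -0.50 and -0.93 (adjusted p = 0.186 and 0.0938).

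Between the lines, 201149_s_at was 8.02 and 8.12 in Sa/CD99 against 7.13 and 6.80 in SaOS-2 at day 0, a difference of 1.11 (SE 0.28, limma adjusted p = 0.0995). 201147_s_at was 8.23 and 8.20 in Sa/CD99 against 6.90 and 6.80 in SaOS-2, a difference of 1.37 (SE 0.39, adjusted p = 0.144). Both kept the lines apart on each day and neither was called. At day 14, 201147_s_at was 7.80 in clone wt22 and 6.19 in clone wt36, against 5.95 and 5.88 in SaOS-2. The fourth probe set, 201150_s_at, was above the floor on 3 arrays and was not tested. It measured 7.69 and 7.78 in Sa/CD99 against 6.59 and 6.50 in SaOS-2 at day 0.

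**Figure D2:**
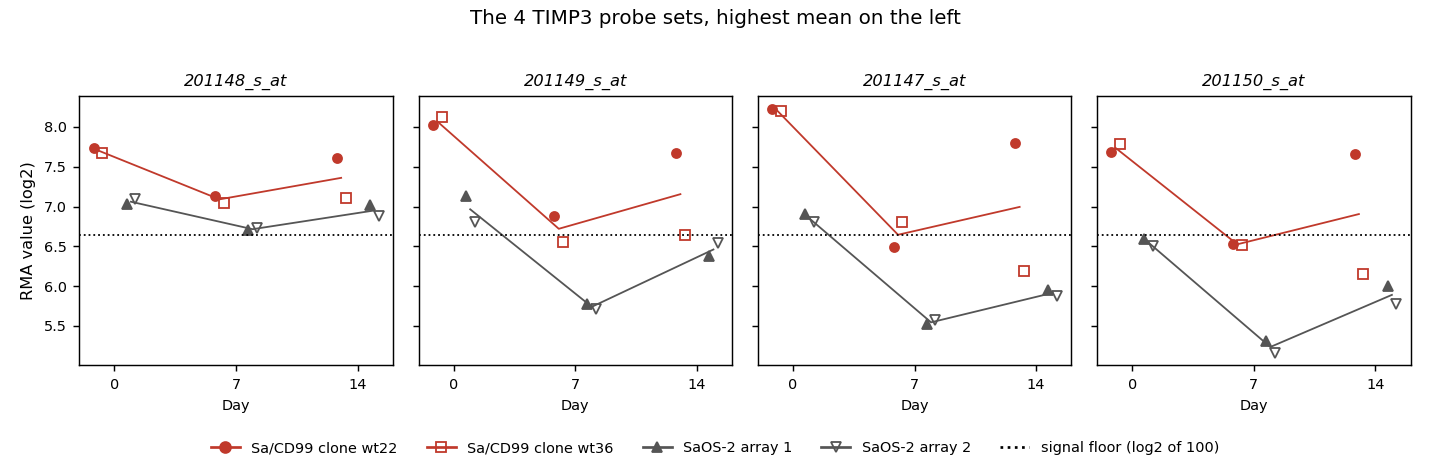
Log2 RMA value of each array (vertical axis) by day (horizontal axis) for the 4 TIMP3 probe sets, in arrays labelled Sa/CD99 (red) and SaOS-2 (grey), with lines through the group means and the signal floor dotted. In every probe set the group means are lowest at day 7, and every probe set places both Sa/CD99 arrays above both SaOS-2 arrays on each day, and clone wt22 lies above wt36 at day 14.

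Counted over the 5 tested genes, the calls compare with all 6644 tested genes as follows. Between Sa/CD99 and SaOS-2, 0 of 5 was called at days 0, 7 and 14, against 1.16%, 1.84% and 1.66% of all genes, and 1 of 5, TIMP3, had an unadjusted p below 0.05 on each day, as did 766, 1420 and 1154 of all 6644 genes. In Sa/CD99, 1 rose and 1 fell at day 7 and 2 rose at day 14, against 15.8% and 19.7% of all genes called in either direction. In SaOS-2, 1 rose at day 7 and 2 rose at day 14, against 20.4% and 14.7%. The median change of the 5 genes was 0.32 and 0.45 at days 7 and 14 in Sa/CD99, where that of all genes was -0.02 and -0.03, and 0.43 and 0.57 in SaOS-2, where it was -0.04 and -0.03. The day comparisons of a line share their day 0 arrays. Fitted on the arrays of the compared groups alone, 0 of 5 was called in Sa/CD99 on either day, and 2 of 5 in SaOS-2 on each.

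Whether the change over days differed between the lines was tested as an interaction of line and day. None of the 5 genes was called at day 7 or day 14 (limma adjusted p = 0.999 for each), and 0 had an unadjusted p below 0.05. Of all genes 0.00% were called at day 7 and 0.00% at day 14, and 249 and 223 of 6644 had an unadjusted p below 0.05. For TIMP3 the change in Sa/CD99 minus that in SaOS-2 was -0.27 at day 7 (95% interval -0.74 to 0.20) and -0.23 at day 14 (-0.70 to 0.24). For MMP14 it was 0.07 (-1.04 to 1.17) and 0.18 (-0.92 to 1.28).

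**Figure D3:**
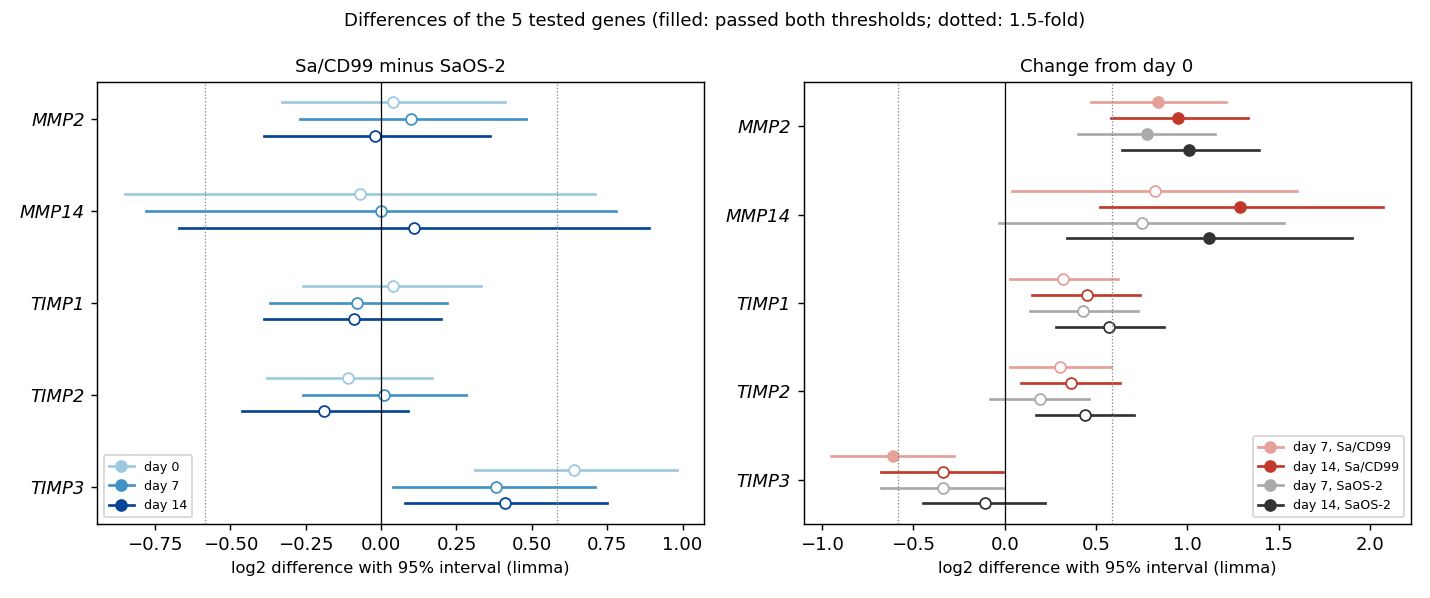
Log2 differences with 95% intervals from limma (horizontal axis) for the 5 tested genes, between Sa/CD99 and SaOS-2 on each day (left) and from day 0 within each line (right), with filled points for calls and dotted lines at 1.5-fold. No point is filled on the left, and on the right the filled points are MMP2 in all 4 comparisons, MMP14 at day 14 in both lines and TIMP3 at day 7 in Sa/CD99.

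The remaining 5 genes stayed below the floor of 6.64 on all 12 arrays, where RMA values carry little signal, and their values are descriptions. MMP1, the interstitial collagenase, measured 2.70 to 3.11 in Sa/CD99 and 2.73 to 3.14 in SaOS-2. MMP13, the collagenase of osteoblasts and hypertrophic chondrocytes, measured 3.54 to 3.95 in Sa/CD99 and 3.66 to 4.10 in SaOS-2. MMP11, also known as stromelysin 3, reached 6.30 in Sa/CD99 and 6.34 in SaOS-2. Taken over the 3 days the lines overlapped for each of these genes, while on single days the arrays were apart for MMP1 (day 0) and for MMP13 and MMP11 (day 7).

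MMP16, a membrane-type enzyme related to MMP14, had 5 probe sets, none above the floor on any array. The probe set with the highest mean measured 4.69 to 5.21 in Sa/CD99 and 4.71 to 5.10 in SaOS-2. Another, 223614_at, measured 3.60 and 3.57 in Sa/CD99 against 4.32 and 4.15 in SaOS-2 at day 0, and 3.80 and 3.59 against 4.72 and 4.64 at day 7. In a fit of all probe sets without filters its differences were -0.65 (limma adjusted p = 0.0391) and -0.99 (adjusted p = 0.00473). At this level, below the floor, they are descriptions of 1 probe set. At day 7 207012_at also lay lower in Sa/CD99 (3.03 and 3.09 against 3.56 and 3.91). The probe set 208167_s_at did not (3.49 and 3.44 against 3.44 and 3.33). At day 14 it measured 3.98 and 3.75 in Sa/CD99 against 4.15 and 4.16 in SaOS-2.

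TIMP4, an inhibitor with a more restricted tissue pattern than the others, came closest to the floor. It measured 5.36 and 6.03 at day 0, 5.65 and 6.03 at day 7, and 6.06 and 6.06 at day 14 in Sa/CD99. In SaOS-2 it measured 5.83 and 5.41 at day 0, 6.08 and 5.95 at day 7, and 6.54 and 6.52 at day 14. At day 14 both SaOS-2 arrays lay above both arrays labelled Sa/CD99.

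**Figure D4:**
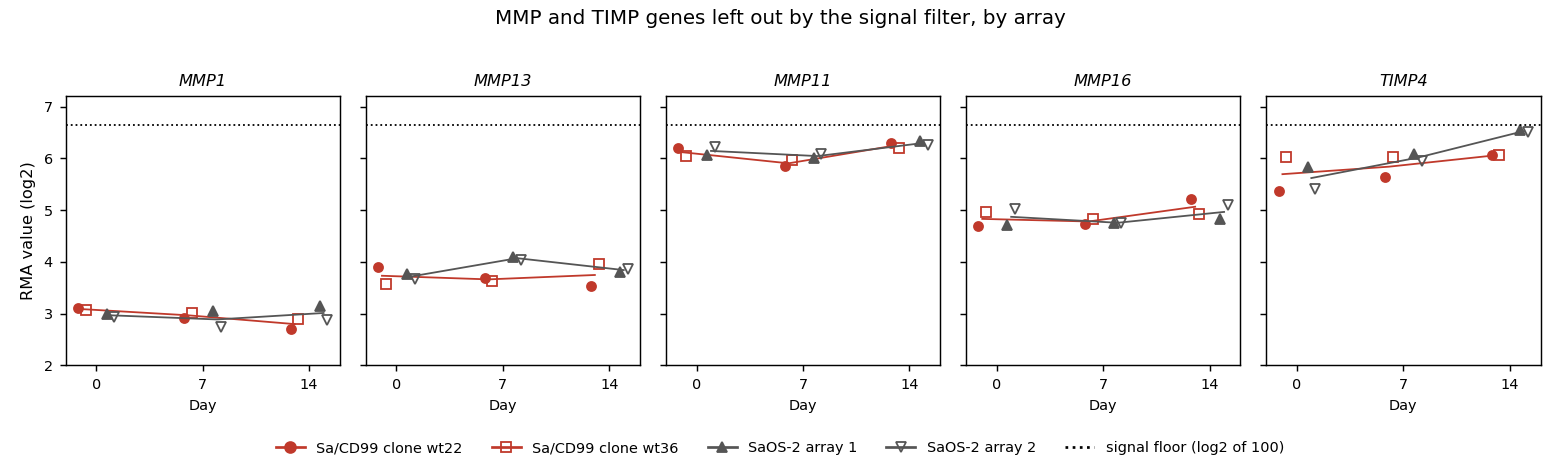
Log2 RMA value of each array (vertical axis) by day (horizontal axis) for the 5 genes left out by the signal filter, in arrays labelled Sa/CD99 (red) and SaOS-2 (grey), with lines through the group means. All points lie below the dotted floor at 6.64, and the TIMP4 arrays of SaOS-2 at day 14 come closest to it with 6.54 and 6.52.

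Among the genes around the MMPs, 16 other MMP genes were on the array by a probe set of their own and 0 passed the filters. MMP28 passed the signal filter but failed the IQR filter, with a highest value of 7.03. Of 17 activators and surface regulators on the array 12 were tested and none was called between lines. Of all genes 1.16%, 1.84% and 1.66% were called between lines at days 0, 7 and 14. PLAU, the urokinase that converts plasminogen to plasmin, rose at day 14 by 1.83 in Sa/CD99 and by 2.26 in SaOS-2 (limma adjusted p = 0.00157 and 0.000658). PLAUR, its receptor, fell, with changes of -1.46 in Sa/CD99 and -2.03 in SaOS-2 (adjusted p = 0.00295 and 0.000745). SERPINE2, an inhibitor of urokinase and thrombin, rose by 1.66 in Sa/CD99 and by 1.06 in SaOS-2. CAV1, the caveolin that forms membrane pits, fell, with changes of -2.19 and -1.95. In the whole list 2 rose and 3 fell in Sa/CD99 at day 14, and 2 rose and 2 fell in SaOS-2, against 19.7% and 14.7% of all genes called in either direction.

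**Figure D5:**
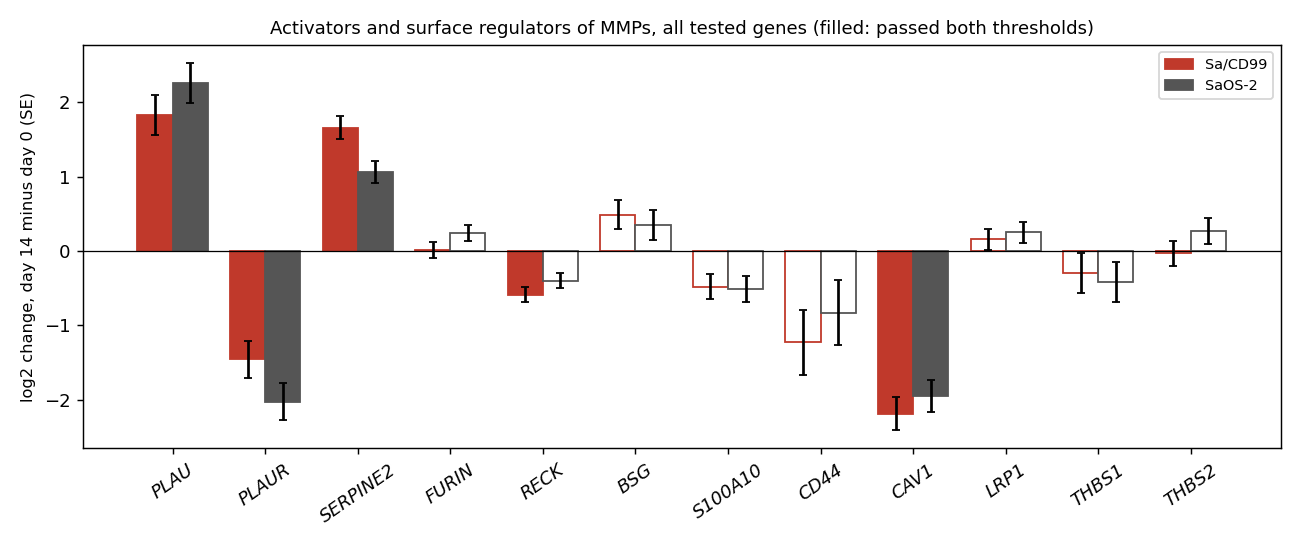
Log2 change at day 14 from day 0 (vertical axis, bars with SE from limma) of the 12 tested activators and surface regulators of MMPs (horizontal axis), in Sa/CD99 (red, left bar) and SaOS-2 (grey, right bar), filled where both thresholds were passed. PLAU and SERPINE2 rise and PLAUR and CAV1 fall in both lines.

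Of 22 ADAM and ADAMTS proteases and relatives on the array 9 were tested, and 3 fell at day 14 in each line, where 818 of all 6644 genes fell in Sa/CD99 and 486 in SaOS-2. ADAM9, ADAM10 and ADAM19, membrane sheddases, changed by -1.01, -0.98 and -0.69 in Sa/CD99 and by -0.93, -0.60 and -0.61 in SaOS-2. Of 9 cathepsins and cystatins 4 were tested. CTSS, the lysosomal cysteine protease cathepsin S, rose by 1.93 and 2.15 at days 7 and 14 in Sa/CD99 and by 1.76 and 1.92 in SaOS-2. It was the only one of the 4 called. Of all genes, 15.8% and 19.7% were called at days 7 and 14 in Sa/CD99, and 20.4% and 14.7% in SaOS-2.

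Of 15 AP-1, ETS, RUNX and NF-kB factors known to act on MMP promoters 9 were tested. At day 14 the AP-1 subunit JUNB rose in both lines (limma adjusted p = 0.0023 and 0.00343), by 0.94 in SaOS-2, and JUND rose by 0.73 in Sa/CD99 and by 0.76 in SaOS-2. FOSL1, another AP-1 subunit, fell by 1.14 at day 7 and by 1.52 at day 14 in Sa/CD99, and by 0.96 at day 7 in SaOS-2. RUNX2 and ETS2 rose by 0.67 and 0.65 at day 7 in Sa/CD99 (limma adjusted p = 0.00178 and 0.0207). In SaOS-2 their day 7 changes were 0.58 and 0.09 (limma adjusted p = 0.00314 and 0.689). RUNX2 missed the call there only by the fold threshold. Its day 14 changes were 0.15 in Sa/CD99 and 0.14 in SaOS-2, not called. In this list 2 rose and 1 fell at day 7 in Sa/CD99 and 1 fell in SaOS-2, against 15.8% and 20.4% of all genes called. At day 14, 3 rose and 1 fell in Sa/CD99 and 2 rose in SaOS-2, against 19.7% and 14.7%. Of 20 matrix substrates 10 were tested, and 4 rose at day 14 in each line, as did 493 of all 6644 genes in each. COL3A1, the chain of type III collagen, rose by 4.62 in Sa/CD99 and by 5.41 in SaOS-2. LAMA4, a laminin chain, rose by 3.22 and 2.25, and VCAN, the proteoglycan versican, by 2.36 and 1.57. Between lines, LAMA4 was the only call among the lists from the activators to the matrix substrates. It was 1.25 lower in Sa/CD99 at day 0 (SE 0.16, limma adjusted p = 0.00883), where 1.16% of all genes were called. Among the 5 tested osteoblast markers, 1 was called between lines at day 0 and 0 at days 7 and 14. ALPL, the alkaline phosphatase of mineralising osteoblasts, was 0.82 lower in Sa/CD99 at day 0 (SE 0.15, limma adjusted p = 0.0298). Its differences at days 7 and 14 were -0.51 and -0.52 (adjusted p = 0.105 and 0.123). ALPL rose by 0.78 in Sa/CD99 at day 14 (adjusted p = 0.00484). SP7 changed by -1.19 in SaOS-2 at day 7 (adjusted p = 0.0102). The other line gave 0.49 and -0.20, not called.

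For each tested MMP and TIMP gene the 3 genes with the most similar values over the 12 arrays are given as a description. The arrays share 3 days and 2 lines, so Pearson's r largely follows these groups. They were AHRR, TPP1 and GAA for MMP2 (r = 0.98, 0.98 and 0.97), TAPBP, PKIG and HLA-G for MMP14 (0.98, 0.98 and 0.97) and IFI35, CDH11 and AHRR for TIMP1 (0.98, 0.97 and 0.96). For TIMP2 they were GPX7, FLJ32255 and WDR45 (0.95, 0.95 and 0.94). For TIMP3 they were IL32, KRABD1 and TENT5B (0.95, 0.95 and 0.94).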

How the data were processed

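Total RNA of 12 samples was hybridized to HG-U133 Plus 2.0 arrays. Values deposited by the authors were log2 signals of probe sets, summarised with RMA (background correction, quantile normalization, summary of probes). The processing notes of the submitters name affy and RMA, and their versions and a genome build are not given in the sources used here. The number of arrays limits the precision.

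Of 54613 probe sets (62 controls left out), 18677 passed the signal filter and 12894 were tested with limma 3.58.1 in R 4.3.3, with a mean per group and a spread shared by all 6 groups (6 residual degrees of freedom), in 9 comparisons. The median SE was 0.14, and 0.20 for an interaction. The code was tested on simulated data. Genes were named from the platform annotation, updated by gene ID. Of the probe sets, 41091 had 1 gene, 1801 several and 11721 none. Those with several were left without a name.

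The clone number marks the same line on each day. Differences between clones correlated between days (r = 0.58, 0.32 and 0.63 across probe sets), so it pairs the Sa/CD99 arrays. Parental numbers gave -0.04, 0.24 and -0.05. The members and gene lists were chosen with earlier results of these data known. Beside the MMP and TIMP genes, up to 3 called genes per list and day comparison and up to 4 per line comparison were eligible to be named, those with the largest change. Alternatives covered filters, normalization, weights, block, averaging of probe sets and leaving out arrays. Leaving out a whole clone was added after seeing the data.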

Additional observations from a re-analysis of the deposited data

Results flagged for a closer look

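TIMP4 was left out of the tests because no array reached the signal floor. In a fit of all probe sets without filters it was higher in SaOS-2 at day 14 than at day 0 by 0.92 (SE 0.21, limma adjusted p = 0.0254), with 6.54 and 6.52 at day 14 against 5.83 and 5.41 at day 0. In Sa/CD99 the corresponding change was 0.36 (adjusted p = 0.332). The difference between these changes was -0.55 (SE 0.30, adjusted p = 0.999).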

How the results depend on the processing

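Of the changes of the 5 tested genes compared with their main fit, 1028 kept direction and side of the threshold, 21 lost and 21 gained a call and 40 changed sign. The 1028 include fits without an array from outside the compared groups, where the change itself cannot move. They also include changes that were not called in either fit, so the total is not a measure of stability. MMP2 in both lines at both days kept its call except in Sa/CD99 on the arrays of the compared groups alone (adjusted p = 0.0594 at day 7 and 0.086 at day 14) and when its probe sets were averaged. The causes of these changes were not tested, except where fewer arrays entered the fit.

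The number of MMP and TIMP genes called between Sa/CD99 and SaOS-2 was 0 in the main fit. It was 0 to 1 at days 0 and 14 and 0 at day 7 with 1 array left out, the gene being TIMP3. It was 1 at day 0 without clone wt22 and without clone wt36, and 1 at day 14 without clone wt36. With a clone left out the spread comes from parental arrays alone and the lone clone is assumed to vary like them. In Sa/CD99 the main count of 2 on each day was 1 to 2 with 1 array left out, 0 on the arrays of the compared groups alone and 1 with averaged probe sets. At day 7 it was 1 with arrays weighted per line. In SaOS-2 the count of 1 at day 7 was 1 to 2 with 1 array left out, and 2 with array weights, with own groups alone, with either clone left out and with a random or fixed replicate block. The gene added was MMP14. The count of 2 at day 14 was 1 to 2 with 1 array left out and 1 with averaged probe sets (TIMP4). With arrays centred on their median, TIMP1 gained a call at day 14. The averaged fit used no filter on signal or IQR, so it changed 2 choices at once, and TIMP4, which has 1 probe set, entered through the missing filter.

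The replicate block (consensus correlation 0.19) gave MMP14 a call at day 7 in both lines, in SaOS-2 with 0.75 and adjusted p = 0.0449 (random) and 0.00494 (fixed), where the parental numbers do not pair the arrays. It changed no other call of the 5 genes. The fixed block could not be fitted to the line comparisons.

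Sign changes were of small differences between lines. Leaving out 1 array gave at day 0 ranges of -0.07 to 0.15 for MMP2, -0.26 to 0.13 for MMP14 and -0.04 to 0.12 for TIMP1. At day 7 they were -0.04 to 0.25 for MMP2, -0.52 to 0.52 for MMP14, -0.27 to 0.12 for TIMP1 and -0.03 to 0.06 for TIMP2. At day 14 they were -0.26 to 0.23 for MMP2 and -0.35 to 0.56 for MMP14. For the interaction at day 7 they were -0.08 to 0.21 for MMP2, -0.45 to 0.58 for MMP14 and -0.30 to 0.08 for TIMP1. For that at day 14 they were -0.30 to 0.19 for MMP2, -0.28 to 0.63 for MMP14, -0.26 to 0.10 for TIMP2 and -0.48 to 0.02 for TIMP3.

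Without clone wt22, MMP2 was -0.07 at day 0 and -0.04 at day 7, TIMP1 -0.04 at day 0, MMP14 -0.35 at day 14, and the MMP14 interactions were -0.26 and -0.08. Without clone wt36, MMP14 was 0.13 at day 0 and 0.52 at day 7 (adjusted p = 0.00248), TIMP1 0.12 at day 7, MMP2 0.23 at day 14, and the day 14 interactions of MMP2 and TIMP2 were 0.08 and 0.03. Quantile normalization gave MMP14 0.05 and TIMP2 -0.02 at day 7, and median centring gave MMP14 0.05 at day 7 and MMP2 0.00 at day 14. Averaged probe sets gave TIMP2 -0.01 at day 7 and MMP2 a day 7 interaction of -0.05.

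Over all probe sets, 189, 234 and 188 were called between lines at days 0, 7 and 14. With 1 array left out the counts ran from 13 to 263, 21 to 511 and 18 to 329, on own groups alone they were 15, 12 and 6, without clone wt22 965, 1338 and 847, and without wt36 801, 791 and 1312. At day 0 quantile normalization gave 122. For days 7 and 14 in Sa/CD99, 2342 and 2495 were called, and 799 and 294 on own groups alone. Without a filter 3815 were called at day 7, and at day 14 array weights gave 1655 and leaving out wt36 4059. In SaOS-2, 2765 were called at day 7 and 4348 without a filter, and 1919 at day 14, with 1083 to 2016 when 1 array was left out. The interactions called 0 and 2 probe sets, and 493 and 617 without wt22 and 580 and 1149 without wt36. In the other settings 0 to 6 were called. With probe sets averaged per gene, 65, 125 and 106 genes were called between lines, 867 and 1059 in Sa/CD99 and 1106 and 886 in SaOS-2.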
